A study of Mus musculus with 147 samples.

Results

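Male germ cells of mice at postnatal day (PND) 5 and PND6 were compared with those at PND2, in single-cell RNA sequencing data made with a modified STRT-seq, in which transcripts of a cell share a barcode, each molecule has its own identifier (UMI), and the 3′ end is read. Germ cells were chosen by their transcripts. Of 985 wild-type cells of PND2, PND5 and PND6 with more than 2000 genes and 10000 to 1000000 UMIs, those with at least 150 UMIs per 1000000 UMIs of the cell (CPM) of Ddx4, an RNA helicase gene of the germ line, and under 100 CPM each of Sox9, a Sertoli cell gene, and Nr2f2, an interstitial cell gene, were kept. These were 712 of the 13032 cells of the series, 207 at PND2 and 505 at PND5-PND6. The cells of 1 time-point and 1 replicate (R1 or R2) were summed to a pool. The PND2 R1 pool held 26 cells and PND2 R2 held 181, PND5 R1 held 173, PND6 R1 held 56, and the R2 pools of PND5 and PND6 lay between these. All groups were wild-type male offspring of C57BL/6 females and BVSC males, which carry the reporters Blimp1-mVenus and Stella-ECFP, and no agent was given to any of them. After birth, testicular cells with the look of germ cells were picked by mouth pipette without a sort, so somatic cells and unlike germ cells could both enter a pool. The labels of the libraries give neither day nor animal. Day and replicate come from the name of each cell in the deposited tables, and per the study's supplement each pool came from a single testis. Whether R1 and R2 of a day were littermates, or both testes of an animal, is not given in the sources used here. The p-values therefore measure the spread between pools of single testes, which at PND5-PND6 also holds any difference between the days.

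In the newborn testis, germ cells are prospermatogonia (ProSPG) that rest in the cell cycle at the centre of the cords. In the days after birth they re-enter division, reach the basement membrane and become spermatogonia (SPG). Some keep a stem cell state that depends on GDNF from Sertoli cells, which acts through the receptor subunits Gfra1 and Ret. Others answer to retinoic acid, switch on Stra8 and the receptor Kit, and differentiate. The study finds the first undifferentiated SPG at PND2, so PND2 lies within this change and not before it. PND5-PND6 lies later in the same change.

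The pools held between 12140402 UMIs (PND2 R1) and 51820219 UMIs (PND5 R1). PND2 R1 stood apart. Only 23.6% of its cells that passed the filter were germ cells, against 46.7 to 95.8% in the other pools, and 69 of its cells were somatic, meaning under 50 CPM of Ddx4 and at least 100 CPM of Sox9 or Nr2f2. Of the 6 pools, it also had the highest summed levels of Sertoli, interstitial and Leydig markers in its germ cells. The summed level of 16 Sertoli markers was 1171 CPM there, 379.8 CPM in PND2 R2 and 350.1 to 1021 CPM in the PND5-PND6 pools, against 6554 CPM in somatic cells. That of 13 interstitial and peritubular markers was 434 CPM in PND2 R1, 137.7 CPM in PND2 R2 and 105.2 to 258 CPM later. In somatic cells it was 3931 CPM. That of 8 Leydig markers was 369, 195 and 143.4 to 252 CPM, against 142.9 CPM in somatic cells, which were not chosen by a Leydig gene. Fdx1, given below, was most of that sum in PND2 R2, so the sum is no clear measure of Leydig RNA. None of the 15 Sertoli, 6 Leydig and 12 interstitial markers tested was called between PND2 and PND5-PND6 (edgeR, adjusted p under 0.05). That depended on PND2 R1. Without it, all 15 Sertoli markers, 5 of 6 Leydig and 10 of 12 interstitial markers lay above 0 at PND5-PND6, with median log2 fold changes of 1.83, 1.66 and 1.00, and 2 were called higher, Rhox8 of the Sertoli list and Col1a1. Rhox8, an X-linked homeobox gene of Sertoli cells, had 61.4 and 9.51 CPM at PND2 and 27.2, 85.2, 62.8 and 110.6 CPM at PND5-PND6 (without PND2 R1, log2 fold change 3.11 and adjusted p = 0.0375). The most abundant markers also differed between pools. Clu, a chaperone gene of Sertoli cells, had 198 and 46.1 CPM at PND2 and 29.5, 79.95, 103.7 and 132.4 CPM at PND5-PND6, and Ctsl, a protease gene of the same cells, had 326 and 237 CPM at PND2 and 216, 293, 267 and 299 CPM at PND5-PND6. Among Leydig markers, Cyp11a1 had 70.4 and 3.82 CPM at PND2 and 0.521, 33.7, 13.2 and 20.99 CPM at PND5-PND6, and Fdx1 had 149 and 186 CPM at PND2 and 138.4, 146.4, 120.6 and 142.1 CPM at PND5-PND6. Of the interstitial list, Col1a1 had 61.5 and 17.7 CPM at PND2 and 34.1, 47.2, 53.4 and 53.4 CPM at PND5-PND6, and Ptch1 had 41.7 and 50.8 CPM at PND2 and 32.96, 38.1, 31.9 and 44.2 CPM at PND5-PND6. Without PND2 R1, Col1a1 had log2 fold change 1.61 and adjusted p = 0.0246. Free or co-picked RNA of these cells was not tested as a part of any result below. Values are given in the order PND2 R1, PND2 R2, PND5 R1, PND5 R2, PND6 R1, PND6 R2 throughout.

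The label of germ cells rests on Dazl and Mael, given below. Ddx4 was used for the choice, so its level was set by the limits and does not support the label. It was at 354 to 427 CPM in all 6 pools. Somatic cells, defined by under 50 CPM of it, were at 19.7 CPM. The lowest cell inside the choice had 159.75 CPM of Ddx4 and the highest outside it 146.999 CPM, and 35 cells missed the Ddx4 limit alone. Dazl, an RNA-binding protein gene of germ cells that was not used for the choice, had 559 and 696 CPM at PND2 and 757, 685, 632 and 713 CPM at PND5-PND6. Mael, a gene of the piRNA pathway, had 424 and 524 CPM at PND2 and 511, 519.5, 468 and 516 CPM at PND5-PND6. Neither was called, with log2 fold changes of 0.41 and 0.35 and adjusted p = 0.152 and 0.193. In somatic cells they were at 73.8 and 42.1 CPM. Without PND2 R2 both were called higher, with adjusted p = 0.0251 for Dazl and 0.0272 for Mael.

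Between PND2 and PND5-PND6, 4046 of 19555 genes were called (20.7%), 1976 higher (10.1%) and 2070 lower (10.6%). Among these, 513 of the higher and 1747 of the lower genes changed at least 2-fold (2.62% and 8.93% of all tested). The lower genes were expressed at low levels, with a median of 2.93 log2 CPM over the pools against 6.57 for the higher genes. At a mean under 1 log2 CPM, 407 genes were called lower and 4 higher, and 99 of the lower genes were listed at 0 in all 4 later pools, so that their fitted fold changes are no measure of size. PND2 R1 weighed on the falls, since 579 of the lower genes had more than 2 times the level in PND2 R1 that they had in PND2 R2, and 41 the reverse. When PND2 R1 was left out, 632 genes were called higher and 379 lower, of which 608 and 370 were also among the calls from all pools. No called gene changed its sign without any 1 of the 6 pools where it could be fitted, and 514 higher and 299 lower genes were called without each pool in turn. Fold changes are given after TMM scaling, which set the median gene 0.275 higher in log2 than total UMIs did. By total UMIs alone, 872 genes were called higher and 2986 lower. By the mean of per-cell CPM with limma these were 1005 and 4371, in a fit over PND0 to PND8 they were 1369 and 3180, and in PND6 alone against PND2 they were 492 and 1079.

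**Figure D1:**
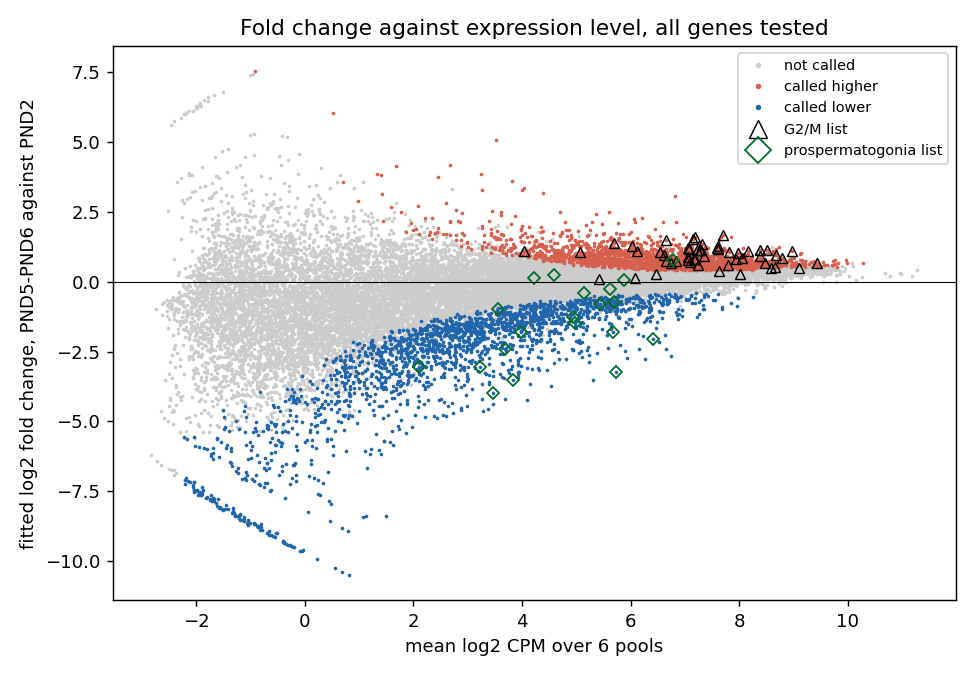
Each dot is 1 of the tested genes, with its mean log2 CPM over the 6 pools on the x axis and its fitted log2 fold change of PND5-PND6 against PND2 on the y axis; red and blue dots are the 1976 genes called higher and the 2070 called lower, triangles are the G2/M list and diamonds the prospermatogonia list. The triangles lie above 0, and the blue dots reach down to low levels, where the lowest line of dots holds genes listed at 0 in the later pools.

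Of 20 genes of prospermatogonia, 11 were called lower (55%, beside 10.6% over all genes) and 1, Asb9, higher. The median log2 fold change was -1.37 against -0.09 over all genes. Dnmt3l, the cofactor of de novo DNA methylation in these cells (chromosome 10, 78041947 to 78063622 in GENCODE M21 on mm10), had 57 and 27.1 CPM at PND2 and 2.95, 3.77, 2.48 and 2.50 CPM at PND5-PND6. Krt18, an intermediate filament gene (chromosome 15, 102028180 to 102032027), had 179 and 122.7 CPM at PND2 and 7.64, 26.9, 8.09 and 9.17 CPM at PND5-PND6. Tie1, a receptor tyrosine kinase gene better known from endothelium, had 46.2 and 22.2 CPM at PND2 and 2.22, 2.07, 1.52 and 1.16 CPM at PND5-PND6. For all 3 the PND2 pools lay far above the later ones without overlap, as the pools did for 33.6% of all genes in this direction and 11.9% in the other. The fall was log2 fold change -3.52, SE 0.33, adjusted p = 0.000673 for Dnmt3l, log2 fold change -3.24, SE 0.45, adjusted p = 0.00249 for Krt18 and log2 fold change -3.97, SE 0.38, adjusted p = 0.000747 for Tie1. All 3 were also called without PND2 R1, with adjusted p = 0.0112, 0.0226 and 0.0115. Krt8, the filament partner of Krt18, fell by 3.05 in log2, and Krt19 fell by 1.81. The muscle transcription factor genes Myog (log2 fold change -3.04, adjusted p = 0.00684) and Mef2c (log2 fold change -2.41, adjusted p = 0.0118) fell as well, but neither was called without PND2 R1 (adjusted p = 0.0701 and 0.169), and Mef2c stood at 125.15 CPM in somatic cells. Mmp9 and Timp1, a matrix protease gene and the gene of a protease inhibitor, fell by 2.04 and 1.79. Not called were Tspan8, a tetraspanin gene (log2 fold change -1.27, adjusted p = 0.146), and Zxdc, a zinc finger gene (log2 fold change -0.97, adjusted p = 0.133). Tspan8 had 57 and 55.98 CPM at PND2 and 4.48, 40.7, 13.3 and 19.1 CPM at PND5-PND6, so that the PND5 pools alone spanned most of its range. It was called without PND5 R2 (adjusted p = 0.0166) and not with it. Without PND2 R1, 7 of the 20 genes were called lower and none higher. Several members were chosen because the study names them for ProSPG in these cells, so their direction is not independent evidence.

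**Figure D2:**
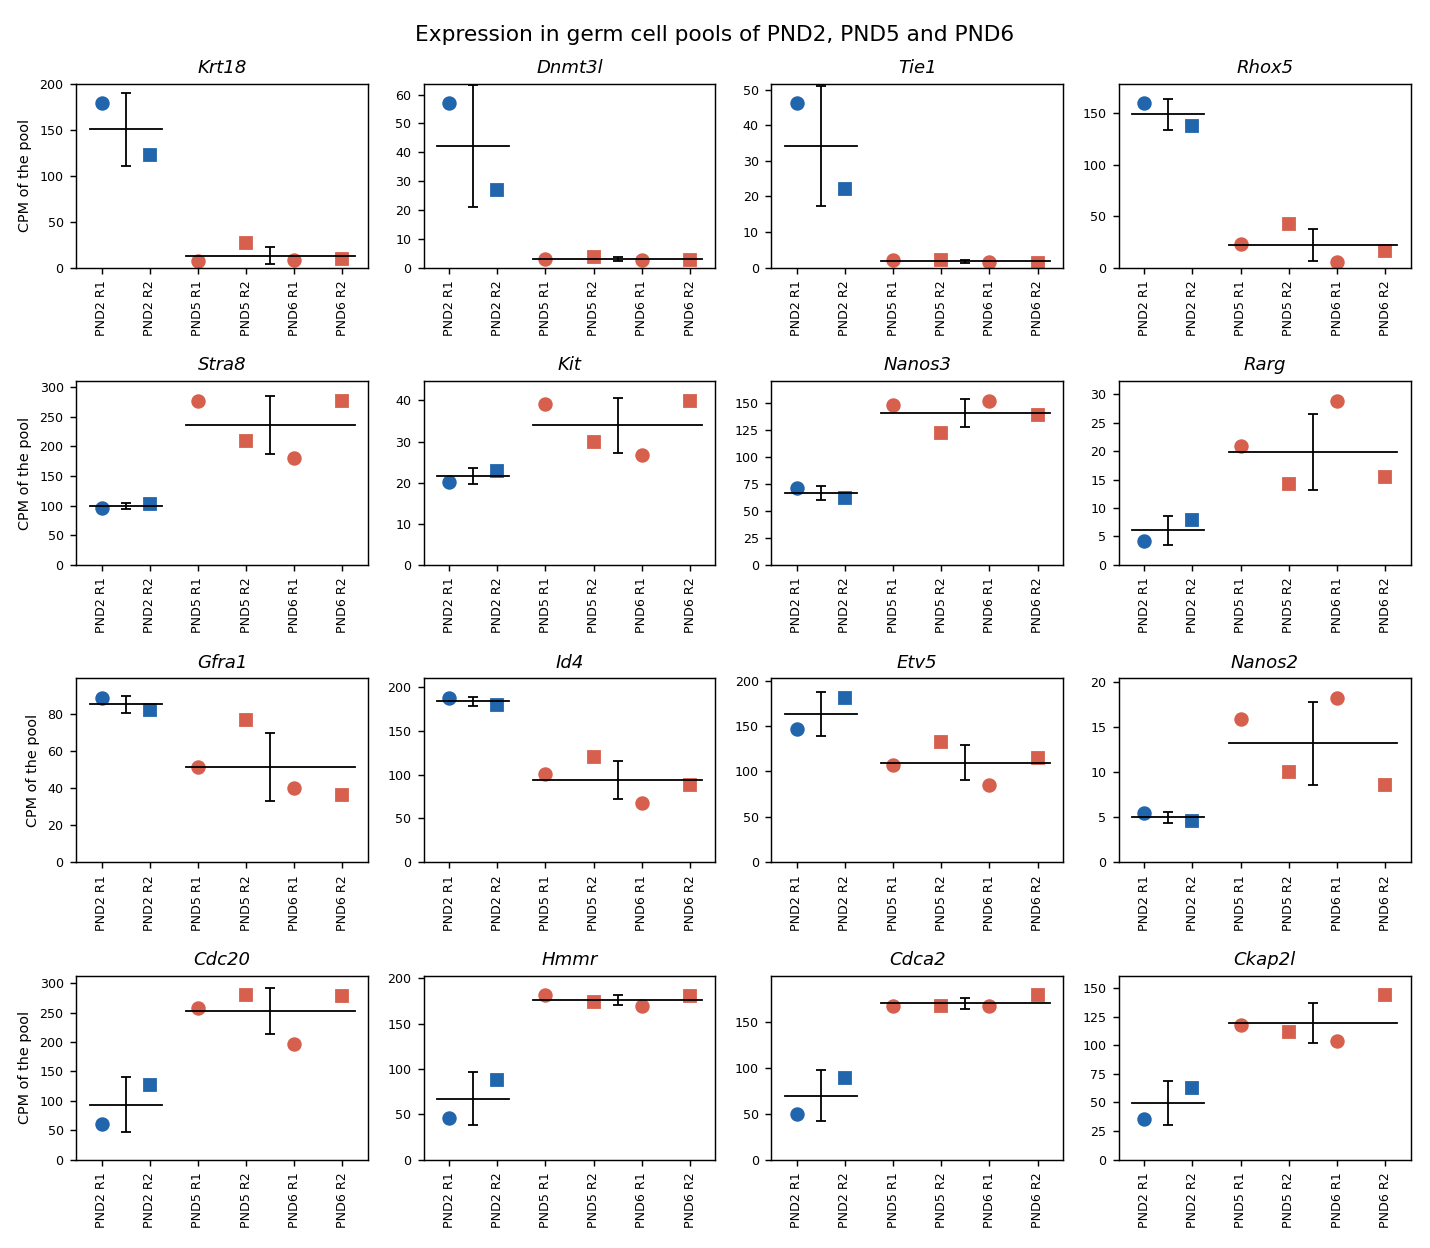
CPM of 16 genes in the 6 pools, blue for PND2 and red for PND5 and PND6, circles for R1 and squares for R2, with the mean of each group as a line and its SD as a bar; every y axis starts at 0. The top row falls from PND2 to later, Stra8, Kit, Nanos3 and Rarg rise, Gfra1, Id4 and Etv5 lie lower in the later pools by smaller steps, and the bottom row of G2/M genes rises in all 4 later pools.

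Of 25 genes of differentiating spermatogonia, 11 were called higher (against 10.1% of all genes), 2 lower and 12 neither way, with a median log2 fold change of 0.58. Stra8, which retinoic acid induces before meiosis (chromosome 6, 34920163 to 34939344), had 95.5 and 103.3 CPM at PND2 and 276, 209, 179 and 277 CPM at PND5-PND6. Every later pool lay above both PND2 pools (log2 fold change 1.52, SE 0.24, adjusted p = 0.00379), and the call held without each pool in turn. Kit, the receptor of stem cell factor (chromosome 5, 75574916 to 75656722), had 20.3 and 22.9 CPM at PND2 and 39.1, 29.9, 26.7 and 39.9 CPM at PND5-PND6. Its pools did not overlap either, but the step from 22.9 to 26.7 CPM between the nearest of them was small, and the call (log2 fold change 0.92, SE 0.26, adjusted p = 0.0341) was lost in 4 of the 6 fits without 1 pool, with log2 fold change 0.78 and adjusted p = 0.178 without PND2 R1. Dmrtb1, a transcription factor gene that the study names for differentiated SPG, had 6.10 and 4.16 CPM at PND2 and 19.8, 14.9, 19.1 and 15.8 CPM at PND5-PND6 (log2 fold change 2.06, SE 0.31, adjusted p = 0.00349). Also higher were Dnmt3b, a de novo DNA methyltransferase gene, with a log2 fold change of 1.17, Kpna2, an importin gene, with 1.01, Dmrt1, a gene of the germ line and Sertoli cells, with 0.77, and Sohlh2, a transcription factor gene of spermatogonial differentiation, with 0.58. Its partner Sohlh1 was not called (log2 fold change 0.47, adjusted p = 0.084), nor was Upp1, the gene of uridine phosphorylase (log2 fold change 0.89, adjusted p = 0.0582). The 2 members that fell were Esx1, an X-linked homeobox gene, with 48.1 and 26.01 CPM at PND2 and 6.68, 11.7, 10.1 and 5.94 CPM at PND5-PND6 (log2 fold change -1.81, SE 0.32, adjusted p = 0.00583), and Prss50, a testis protease gene, with 45.5 and 28.1 CPM at PND2 and 7.18, 8.03, 6.31 and 9.96 CPM at PND5-PND6 (log2 fold change -1.92, SE 0.28, adjusted p = 0.00315). Without PND2 R1, 3 members were called higher and 1 lower.

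Around retinoic acid, 2 of 24 genes rose and 2 fell, shares below those over all genes. Rarg, the gamma receptor, had 4.28 and 7.91 CPM at PND2 and 20.8, 14.2, 28.9 and 15.5 CPM at PND5-PND6 (log2 fold change 1.91, SE 0.40, adjusted p = 0.011), without overlap, but was not called without PND2 R1 (adjusted p = 0.0791). Stra8 was the other rise. Aldh1a2, which makes retinoic acid, had 62.02 and 41.96 CPM at PND2 and 17.8, 14.1, 20.4 and 11.2 CPM at PND5-PND6 (log2 fold change -1.43, SE 0.25, adjusted p = 0.00551). It was highest in PND2 R1 and lost its call without that pool (adjusted p = 0.0641). The other 20 genes, which include the alpha and beta receptors and the enzymes that degrade retinoic acid, were not called.

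The promoter windows of the 2 genes that rose are shown because retinoic acid receptors bind repeats of a short half-site, here AGGTCA, searched on both strands as AGGTCA and TGACCT. The windows run from 250 bases before the RefSeq start to 50 bases after it on GRCm38.p6, from 5′ to 3′ on the strand of the gene, with matches in capitals. Stra8 lies on the plus strand at chr6:34920698-34920997, and the first window listed for Rarg on the minus strand at chr15:102257473-102257772.
Stra8: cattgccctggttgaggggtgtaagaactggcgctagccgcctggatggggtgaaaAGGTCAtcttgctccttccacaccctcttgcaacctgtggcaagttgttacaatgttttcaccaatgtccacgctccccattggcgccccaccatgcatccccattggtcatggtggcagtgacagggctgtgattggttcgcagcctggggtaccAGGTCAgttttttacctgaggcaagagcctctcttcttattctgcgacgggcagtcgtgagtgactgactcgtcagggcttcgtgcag
Rarg: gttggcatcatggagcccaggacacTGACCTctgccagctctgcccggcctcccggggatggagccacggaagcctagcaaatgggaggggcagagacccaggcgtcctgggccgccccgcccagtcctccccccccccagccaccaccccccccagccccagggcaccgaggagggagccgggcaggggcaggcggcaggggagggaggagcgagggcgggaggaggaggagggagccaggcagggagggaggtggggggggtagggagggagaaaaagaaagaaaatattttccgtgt
The Stra8 window held 2 matches and that of Rarg 1, and the other window listed for Rarg, at chr15:102246451-102246750, held 0. Over 27025 genes, 16.04% of first windows held at least 1 match, and 2 of the 19 windows found for the retinoic acid list did. A match is a run of letters and shows no binding.

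Genes of undifferentiated spermatogonia moved both ways, with 7 of 39 called higher and 7 lower, 17.9% each beside 10.1% and 10.6% over all genes. Among those higher, Nanos3, an RNA-binding protein gene, had 71.1 and 62.1 CPM at PND2 and 148, 122.6, 152 and 138.8 CPM at PND5-PND6 (log2 fold change 1.35, SE 0.15, adjusted p = 0.000997) and held its call without each pool. Zbtb16, a transcription factor gene of stem cell maintenance also known as Plzf, had 53.5 and 58.2 CPM at PND2 and 98.1, 73.01, 113.4 and 86.8 CPM at PND5-PND6 (log2 fold change 0.99, SE 0.19, adjusted p = 0.00733). Nanos2, which keeps stem cells undifferentiated, had 5.44 and 4.58 CPM at PND2 and 15.9, 10.05, 18.2 and 8.56 CPM at PND5-PND6 (log2 fold change 1.66, SE 0.39, adjusted p = 0.0173). Sox3, an X-linked transcription factor gene, had 10.2 and 4.87 CPM at PND2 and 21.2, 10.7, 27.4 and 18.3 CPM at PND5-PND6 (log2 fold change 1.67, SE 0.41, adjusted p = 0.0189). In all 4 the later pools lay above both PND2 pools. Lin28a, an RNA-binding protein gene of progenitors, rose by 0.88 in log2, Foxo1, a transcription factor gene of stem cells, by 0.51 and Ddit4, an inhibitor of mTOR signalling, by 1.29. Without PND2 R1, Zbtb16, Nanos2 and Lin28a were not called (adjusted p = 0.0647, 0.0902 and 0.086), and 2 members in all were called higher and 5 lower.

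The stem cell genes under GDNF went the other way or did not pass. Gfra1, the GDNF-binding receptor subunit (chromosome 19, 58235604 to 58455909), had 88.4 and 81.95 CPM at PND2 and 51.3, 76.7, 39.8 and 36.4 CPM at PND5-PND6. In CPM all later pools were below both PND2 pools, as for 33.6% of all genes, but the gap from PND5 R2 to PND2 R2 was small. CPM are by total UMIs, and the fit is after TMM. The TMM factors were 1.22 and 1.06 at PND2 and 0.921 in PND5 R2, so this order of pools does not carry over to the tested scale. Gfra1 was not called (log2 fold change -0.46, SE 0.28, adjusted p = 0.265). It was called lower without PND5 R2 (log2 fold change -0.73, adjusted p = 0.0366) and in PND6 alone (-0.96, adjusted p = 0.0289). Id4, which marks stem cells, had 187 and 179.6 CPM at PND2 and 100.8, 119.5, 67.7 and 88.5 CPM at PND5-PND6, also without overlap. It missed the threshold narrowly (log2 fold change -0.68, SE 0.22, adjusted p = 0.0512) and passed it under 10 of the 19 alternative settings, among them total UMIs (adjusted p = 0.00829). Etv5, a GDNF target, had 146.2 and 181 CPM at PND2 and 106.8, 132.5, 84.9 and 114.8 CPM at PND5-PND6 and was not called (log2 fold change -0.31, SE 0.21, adjusted p = 0.33), except by total UMIs (adjusted p = 0.0401) and the mean of per-cell CPM (0.0355). Of 32 genes of GDNF and FGF signalling, 7 were called lower (21.9%, beside 10.6% over all genes) and 1, Mycn, higher, with a median of -0.59. Ret, the signalling partner of Gfra1, fell by 1.01 in log2, and the GDNF target T by 2.28. T, which encodes Brachyury, had 28.7 and 45.05 CPM at PND2 and 6.68, 11.03, 5.48 and 2.24 CPM at PND5-PND6 and was called without PND2 R1 (adjusted p = 0.0349). Pou3f1 and Etv4, other GDNF targets, fell by 0.62 and 1.09. Egr3, an immediate early gene, had 16.7 and 14.6 CPM at PND2 and 1.43, 2.66, 4.48 and 2.10 CPM at PND5-PND6, Myc had 9.80 and 13.3 CPM at PND2 and 2.32, 3.69, 1.83 and 1.05 CPM at PND5-PND6, and Dusp5, a phosphatase gene that damps ERK, had 71.4 and 128.3 CPM at PND2 and 34.02, 34.6, 48.5 and 25.8 CPM at PND5-PND6. Their log2 fold changes were -2.31, -2.12 and -1.26, and only Dusp5 of these was called without PND2 R1. The surface marker Thy1 had 31.1 and 29.9 CPM at PND2 and 4.36, 7.71, 0.957 and 3.52 CPM at PND5-PND6 (log2 fold change -2.57, SE 0.57, adjusted p = 0.0136), and Tmc6, a membrane channel-like gene, had 70.8 and 131.3 CPM at PND2 and 26.997, 57.6, 41.8 and 39.7 CPM at PND5-PND6 (log2 fold change -1.05, SE 0.31, adjusted p = 0.0373). Other stem cell genes that the study names were not called: Hhex, a homeobox gene (log2 fold change 0.40, adjusted p = 0.352), Nefm, a neurofilament gene (log2 fold change 0.04, adjusted p = 0.948), and Tagln2, an actin-binding protein gene (log2 fold change -0.27, adjusted p = 0.229). Without PND2 R1, 4 genes of the GDNF and FGF list were called lower and none higher.

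Of 52 G2/M genes of the cell cycle, 40 were called higher (76.9%, beside 10.1% over all genes) and none lower. The log2 fold change of all 52 was above 0, with a median of 0.96. Cdc20, the activator of the anaphase-promoting complex (chromosome 4, 118432901 to 118437352), had 60.2 and 126.1 CPM at PND2 and 258, 279, 196 and 278 CPM at PND5-PND6 (log2 fold change 1.68, SE 0.32, adjusted p = 0.00781). Hmmr, a spindle protein gene (chromosome 11, 40701395 to 40733422), had 46.5 and 87.9 CPM at PND2 and 181, 174, 169 and 180.2 CPM at PND5-PND6 (log2 fold change 1.62, SE 0.27, adjusted p = 0.00453). Cdca2, which brings a phosphatase to anaphase chromatin, had 49.998 and 89.1 CPM at PND2 and 167, 167, 167 and 179 CPM at PND5-PND6 (log2 fold change 1.53, SE 0.25, adjusted p = 0.00446), and Ckap2l, a spindle gene, had 35.7 and 62.8 CPM at PND2 and 118.1, 111.99, 103.5 and 143.6 CPM at PND5-PND6 (log2 fold change 1.51, SE 0.27, adjusted p = 0.00624). In each of the 4, all later pools lay above both PND2 pools, PND2 R1 was the lowest pool, and the call held without each pool in turn. The kinase genes Aurka, Aurkb, Cdk1 and Nek2 rose by 1.18, 1.302, 0.81 and 0.90 in log2, and the cyclin gene Ccnb2 by 1.13. Mki67, the proliferation marker, was not called (log2 fold change 0.82, adjusted p = 0.0835). The summed level of the 52 genes was 6240 CPM in PND2 R1, 9142 CPM in PND2 R2 and 10972 to 12534 CPM in the later pools, against 8613 CPM in somatic cells. It was 5158 and 5357 CPM at PND0 and 12590 and 9853 CPM at PND3. Of 42 G1/S genes, 18 were called higher (42.9%, beside the same 10.1%) and none lower, with a median of 0.52. Chaf1b, a chromatin assembly factor gene, rose by 1.02, Blm, a helicase gene, by 0.98, Tyms, which makes thymidylate, by 0.95, and Exo1, an exonuclease gene, by 0.91. Without PND2 R1, 21 of the 52 G2/M genes and 2 of the 42 G1/S genes were called higher, and by total UMIs alone 32 and 8, with none lower in either case.

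The promoter windows of G2/M genes that rose are shown because a run known as the cell cycle genes homology region, TTTGAA on either strand (TTCAAA on the reverse), and the CCAAT box (ATTGG on the reverse) recur in genes of this phase. Capitals mark both motifs, no matches overlap in the windows shown, and the windows are as above. All 3 genes lie on the minus strand, Cdc20 at chr4:118437294-118437593, Hmmr at chr11:40733388-40733687 and Ckap2l at chr2:129297163-129297462.
Cdc20: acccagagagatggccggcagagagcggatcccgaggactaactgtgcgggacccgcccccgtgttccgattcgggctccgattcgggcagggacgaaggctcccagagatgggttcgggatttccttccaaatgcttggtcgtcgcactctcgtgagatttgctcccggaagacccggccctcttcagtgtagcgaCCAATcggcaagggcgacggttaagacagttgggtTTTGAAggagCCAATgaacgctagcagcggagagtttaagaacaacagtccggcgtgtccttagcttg
Hmmr: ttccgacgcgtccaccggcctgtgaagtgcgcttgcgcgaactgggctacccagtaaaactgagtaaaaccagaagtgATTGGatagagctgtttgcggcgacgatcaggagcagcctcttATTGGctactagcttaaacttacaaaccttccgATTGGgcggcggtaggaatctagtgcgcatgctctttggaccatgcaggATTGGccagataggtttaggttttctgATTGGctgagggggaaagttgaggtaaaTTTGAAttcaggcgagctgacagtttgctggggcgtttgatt
Ckap2l: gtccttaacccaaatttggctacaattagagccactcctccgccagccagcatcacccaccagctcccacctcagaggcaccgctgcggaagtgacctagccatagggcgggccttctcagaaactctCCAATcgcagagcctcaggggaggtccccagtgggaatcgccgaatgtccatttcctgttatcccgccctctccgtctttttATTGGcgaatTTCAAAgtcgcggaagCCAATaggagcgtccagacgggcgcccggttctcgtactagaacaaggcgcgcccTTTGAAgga
Cdc20 held 3 matches of the 2 motifs, Hmmr 6 and Ckap2l 5. Of 46 G2/M genes with a window, 32 (69.6%) held the homology run and 35 (76.1%) a CCAAT box. Over all 27025 first windows the shares were 18.1% and 37.9%. The 35 G2/M genes called higher that have a window held the homology run in 27 cases (77.1%). Among 30 windows of G1/S genes, 5 (16.7%) held the homology run and 21 a CCAAT box. No window was found for Cdca2.

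Inhibitors of the cycle and genes of the Rb-E2F axis moved less, with 3 of 25 higher and 1 lower. These were 12% and 4%, beside 10.1% and 10.6% over all genes. Cdkn1b, which encodes p27 and holds cells in G1, had 39.9 and 18.6 CPM at PND2 and 6.73, 7.63, 12.4 and 4.83 CPM at PND5-PND6 (log2 fold change -1.60, SE 0.37, adjusted p = 0.0152). Ccnd1, a D-type cyclin gene, had 36.98 and 83.6 CPM at PND2 and 136.1, 214, 78.3 and 189 CPM at PND5-PND6 (log2 fold change 1.595, SE 0.45, adjusted p = 0.0325), and the later pool PND6 R1 lay below PND2 R2. E2f3, an activator of S phase genes, rose by 0.84 and Trp53 by 0.84. None of these 4 was called without PND2 R1, where the adjusted p was 0.194, 0.187, 0.103 and 0.0639.

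**Figure D3:**
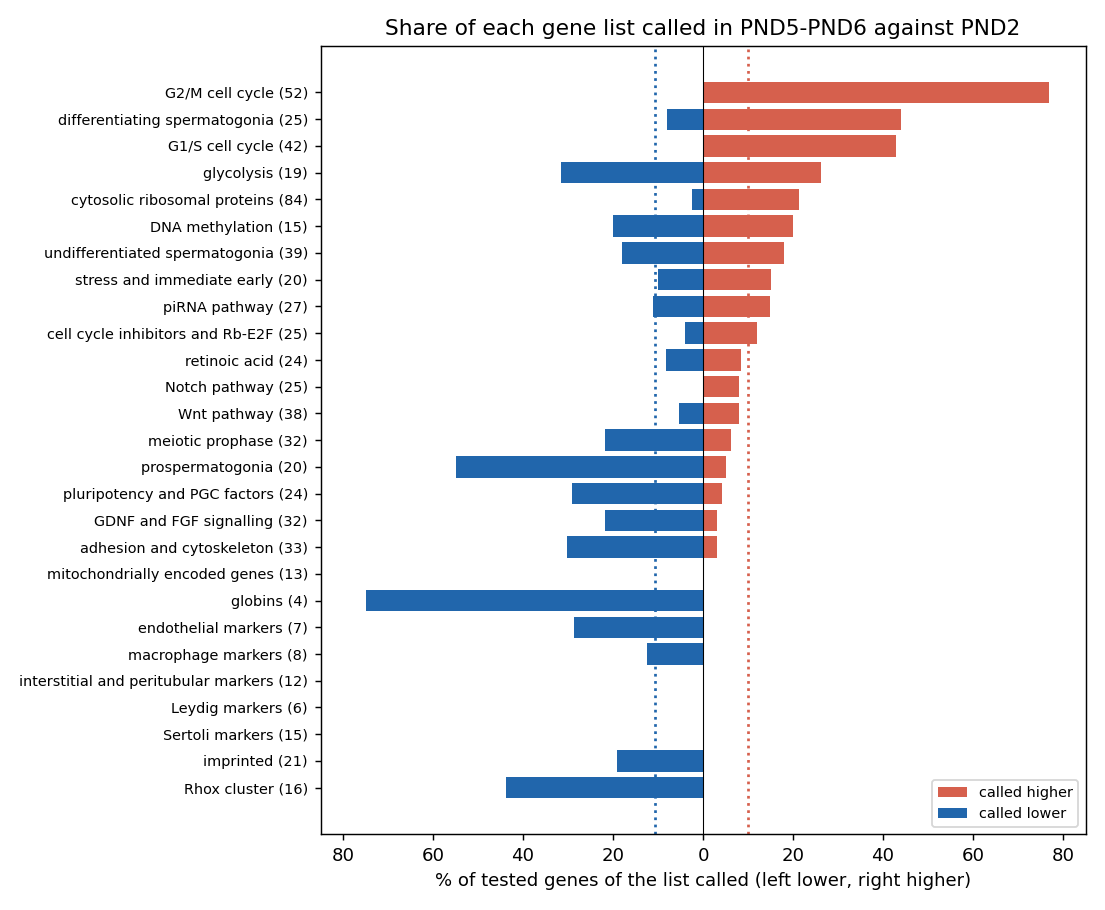
For each gene list, with its number of tested genes in brackets, the bar to the right is the share called higher and the bar to the left the share called lower in PND5-PND6 against PND2; dotted lines mark the shares over all tested genes, 10.1% higher and 10.6% lower. G2/M genes reach 76.9% higher, and prospermatogonia and Rhox genes have 55% and 43.8% lower.

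Falls also outnumbered rises in the 4 lists given here, beside 10.6% lower over all genes, though most members of each were not called. Further lists with more falls than rises follow below. In the Rhox cluster, homeobox genes on the X chromosome that are active in the reproductive tract, 7 of 16 were called lower and none higher. Rhox5, its best known member, had 159 and 137.8 CPM at PND2 and 22.9, 42.5, 5.22 and 15.8 CPM at PND5-PND6 (log2 fold change -2.47, SE 0.55, adjusted p = 0.0131), and Rhox9 had 39.5 and 22.5 CPM at PND2 and 6.48, 6.23, 2.87 and 6.14 CPM at PND5-PND6 (log2 fold change -2.19, SE 0.38, adjusted p = 0.00539). Rhox3a fell by 2.27 and Rhox12 by 4.19 in log2. Members are near-identical copies in part, so that reads may be split among them, and without PND2 R1 none was called lower and Rhox8 was called higher. Of 33 adhesion and cytoskeleton genes, 10 were called lower and 1, Kit, higher, and without PND2 R1 6 were lower and none higher. Besides the keratins, Pecam1, a cell adhesion molecule of endothelium and early germ cells, had 29.3 and 21.7 CPM at PND2 and 4.07, 5.93, 3.31 and 2.56 CPM at PND5-PND6 (log2 fold change -2.39, SE 0.37, adjusted p = 0.00376). Cldn6, a tight junction gene, fell by 3.73 in log2 from a low level. Among pluripotency and primordial germ cell factors, 7 of 24 fell. Sox2 fell by 3.55, Prdm1, the gene behind the mVenus reporter, by 1.66, Tfap2a by 1.57 and Dppa2 by 1.33 in log2, and Lin28a was the 1 rise. None of the 4 was called without PND2 R1, and 3 members in all were called lower there. Of 21 imprinted genes, 4 fell and none rose. Grb10, an adaptor that restrains growth factor receptors, had 69.6 and 33.8 CPM at PND2 and 2.06, 5.47, 4.79 and 6.87 CPM at PND5-PND6 (log2 fold change -3.13, SE 0.41, adjusted p = 0.00191), Meg3 fell by 1.42, Peg3 by 1.03 and Mest by 0.86. Grb10, Meg3, Peg3 and Mest stood at 116.8, 335, 162 and 61.2 CPM in somatic cells, and only Grb10 was called without PND2 R1 (adjusted p = 0.0253).

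Of 19 glycolysis genes, 6 fell and 5 rose, but without PND2 R1 4 were called lower and only Gapdh higher. Slc2a3, a glucose transporter gene, had 85.4 and 69.7 CPM at PND2 and 14.96, 20.7, 8.18 and 12.5 CPM at PND5-PND6 (log2 fold change -2.16, SE 0.31, adjusted p = 0.00291). Ldha, which turns pyruvate into lactate, had 220.4 and 222 CPM at PND2 and 67.1, 98.1, 45.8 and 76.6 CPM at PND5-PND6 (log2 fold change -1.34, SE 0.26, adjusted p = 0.00759). The phosphofructokinase genes Pfkp and Pfkl fell by 1.35 and 1.65 in log2. Gapdh, Gpi1, Pdk1, Eno1 and Aldoc rose by 0.98, 0.69, 0.70, 0.61 and 0.52, and Gapdh has many pseudogene copies that can take its reads. The shares from all pools were 26.3% higher and 31.6% lower, beside 10.1% and 10.6% over all genes. By total UMIs 6 were lower and 3 higher.

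In DNA methylation, 3 of 15 genes rose and 3 fell, and without PND2 R1 1 was called higher, Tdg, and 2 lower, Tet1 and Dnmt3l. Tet1, which oxidizes methylcytosine, had 27.4 and 18.9 CPM at PND2 and 3.40, 6.402, 4.44 and 4.48 CPM at PND5-PND6 (log2 fold change -2.01, SE 0.34, adjusted p = 0.00472). Zfp57, which guards imprints, had 16.4 and 13.7 CPM at PND2 and 3.32, 3.47, 3.74 and 3.49 CPM at PND5-PND6 (log2 fold change -1.82, SE 0.34, adjusted p = 0.00727), and Dnmt3l was the third fall. Tdg, a glycosylase gene of active demethylation, had 10.05 and 7.85 CPM at PND2 and 25.2, 27.2, 21.3 and 29.1 CPM at PND5-PND6 (log2 fold change 1.81, SE 0.27, adjusted p = 0.00318), and Dnmt3b and Nsd1, a histone methyltransferase gene, were the other rises. In the piRNA pathway 4 of 27 rose and 3 fell, shares of 14.8% and 11.1% that lie near the 10.1% and 10.6% over all genes, and without PND2 R1 only Tdrkh was called. Spocd1, needed for methylation directed by piRNAs, had 51.2 and 32.1 CPM at PND2 and 11.6, 15.02, 11.3 and 11.6 CPM at PND5-PND6 (log2 fold change -1.45, SE 0.25, adjusted p = 0.00499), while Tdrkh, a Tudor gene of piRNA trimming, had 152 and 141.7 CPM at PND2 and 206, 218, 236 and 224 CPM at PND5-PND6 (log2 fold change 0.86, SE 0.13, adjusted p = 0.00359). Tdrd6, a gene of late Tudor proteins, fell by 3.49 from 7.001 and 7.431 CPM. Piwil2 and Piwil4, which encode piRNA-binding proteins, were not called (log2 fold change -0.10, adjusted p = 0.63 and log2 fold change -0.39, adjusted p = 0.199). Of 32 genes of meiotic prophase, 7 fell and 2 rose, and without PND2 R1 3 were called lower and 1, Tex11, higher. Spo11, which cuts DNA to start recombination, had 17.96 and 19.9 CPM at PND2 and 3.53, 2.63, 8.09 and 3.84 CPM at PND5-PND6 (log2 fold change -1.83, SE 0.42, adjusted p = 0.0149), and Majin and Mei1, genes of meiotic chromosomes, fell by 1.25 and 0.99. None of Spo11, Majin and Mei1 was called without PND2 R1 (adjusted p = 0.0663, 0.101 and 0.12). Tex11, an X-linked gene of meiotic crossing over, had 83.9 and 81.3 CPM at PND2 and 136.9, 132.8, 150.3 and 133.2 CPM at PND5-PND6 (log2 fold change 1.01, SE 0.13, adjusted p = 0.00217).

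The Wnt and Notch pathways changed in few genes, 3 of 38 higher and 2 lower in the first and 2 of 25 higher in the second. These shares lay below the 10.1% higher and 10.6% lower over all genes. Dkk3, a secreted protein gene of the Dickkopf family, had 2.31 and 2.88 CPM at PND2 and 24.99, 13.4, 24.7 and 22.9 CPM at PND5-PND6 (log2 fold change 3.28, SE 0.38, adjusted p = 0.00126). Lef1, a nuclear effector of Wnt, had 93.3 and 58.1 CPM at PND2 and 21.02, 29.3, 35.8 and 18.2 CPM at PND5-PND6 (log2 fold change -1.26, SE 0.25, adjusted p = 0.00863), and Wnt5a, a ligand gene, fell by 1.53 and stood at 107.7 CPM in somatic cells. Neither was called without PND2 R1 (adjusted p = 0.109 and 0.155). Dvl2, a cytoplasmic relay, rose by 0.83. Rbpj, the DNA-binding effector of Notch, rose by 0.62. Of 20 stress and immediate early genes, 3 rose and 2 fell, 15% and 10% beside 10.1% and 10.6% over all genes. Hspa1a, a heat shock gene with a near-identical copy, had 2.64 and 1.302 CPM at PND2 and 21.9, 10.5, 33.4 and 11.2 CPM at PND5-PND6 (log2 fold change 3.61, SE 0.56, adjusted p = 0.00379), Hspa8, its constitutive relative, had 404 and 352 CPM at PND2 and 657, 646, 517 and 692 CPM at PND5-PND6 (log2 fold change 1.02, SE 0.19, adjusted p = 0.00692), and Jund rose by 0.84. Zfp36, which destabilizes mRNAs, fell by 0.92. Of 84 cytosolic ribosomal protein genes, 18 rose and 2 fell, with 82 above 0 and a median of 0.44, and 1 rose and 1 fell without PND2 R1. Rpl13a rose by 1.24, and Rps4x and Rpl3l fell by 0.75 and 1.61, all of a class with many pseudogene copies. None of 13 mitochondrially encoded genes was called, and mt-Atp6 and mt-Co1 had log2 fold changes of 0.43 and 0.20.

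Some markers of blood and vessels were lower at PND5-PND6. Of 4 globin genes tested 3 fell, Hbb-bt (log2 fold change -2.68, adjusted p = 0.00376), Hba-a1 (log2 fold change -1.88, adjusted p = 0.0303) and Hbb-bs (log2 fold change -1.79, adjusted p = 0.0194), near-identical copies in part. The summed globin level was 238 CPM in PND2 R1, 106.8 CPM in PND2 R2 and 12.6 to 57.97 CPM later, against 75.95 CPM in somatic cells. Of 7 endothelial markers, Flt1 (log2 fold change -1.17, adjusted p = 0.0174) and Emcn (log2 fold change -3.54, adjusted p = 0.0496) fell, and of 8 macrophage markers 1, the lysosomal gene Cd68, did (log2 fold change -1.17, adjusted p = 0.0261), a share near the 10.6% over all genes. Without PND2 R1, Hbb-bt, Flt1 and Cd68 were still called lower and Hba-a1, Hbb-bs and Emcn were not (adjusted p = 0.238, 0.262 and 0.362), and the other 7 macrophage markers lay above 0. The endothelial sum was 219 and 237 CPM at PND2 and 117.6 to 161 CPM later. The macrophage sum was 91.1 and 34.9 CPM at PND2 and 9.75 to 46.3 CPM later, so that PND5 R1 lay above PND2 R2. Their part in the falls of Tie1, Pecam1 and Fcer1g was not tested.

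Among genes with a mean of at least 5 log2 CPM and no overlap of the pools, the 10 with the largest rise were Hmgn5, Gsta3, Erap1, Loxl2, Arrdc3, Large2, Gfpt2, Srrt, Lonrf3 and Spata33. Hmgn5, an X-linked gene of a nucleosome-binding protein, had 27.9 and 16.04 CPM at PND2 and 161, 88.1, 197 and 158 CPM at PND5-PND6 (log2 fold change 3.08, SE 0.31, adjusted p = 0.00083). Large2, a glycosyltransferase gene, had 35.3 and 30.8 CPM at PND2 and 117.1, 116.03, 120.2 and 133.6 CPM at PND5-PND6 (log2 fold change 2.16, SE 0.16, adjusted p = 0.00018). Srrt, a gene of RNA processing at the cap, had 39.2 and 38.6 CPM at PND2 and 143.9, 124.3, 165 and 143.1 CPM at PND5-PND6 (log2 fold change 2.15, SE 0.16, adjusted p = 0.00018). In each the lowest later pool was at least 3 times the highest PND2 pool. Gsta3, a glutathione transferase gene, rose by 2.51, Erap1, an aminopeptidase gene of antigen processing, by 2.44, Arrdc3, an arrestin-domain gene, by 2.26, and Gfpt2, the rate-limiting enzyme gene of the hexosamine pathway, by 2.16. Lonrf3, a RING finger gene, rose by 2.14 and Spata33, a spermatogenesis gene, by 2.10. Loxl2, which cross-links collagen, rose by 2.28 and alone of the 10 was not called without PND2 R1 (adjusted p = 0.0546). Hmgn5, Gsta3, Arrdc3 and Srrt stood at 207, 89.4, 104.8 and 149 CPM in somatic cells, near or above their level in the later pools.

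The 10 with the largest fall were Cxcl14, Krt18, S100a6, Plac8, Kcnj15, Fcer1g, Tstd1, Rsph1, Dmrtc2 and Rhox5. Cxcl14, a chemokine gene, had 92.8 and 132.8 CPM at PND2 and 7.91, 10.9, 3.92 and 10.1 CPM at PND5-PND6 (log2 fold change -3.50, SE 0.36, adjusted p = 0.000918). It was also lower at PND0 than at PND2, with a mean of 24.7 CPM. Tstd1, a sulfurtransferase gene, had 109.1 and 85.2 CPM at PND2 and 11.9, 14.7, 12.01 and 13.2 CPM at PND5-PND6 (log2 fold change -2.62, SE 0.18, adjusted p = 0.00018). Fcer1g, the gamma chain gene of Fc receptors, had 242 and 305 CPM at PND2 and 31.2, 59.3, 26.5 and 25.8 CPM at PND5-PND6 (log2 fold change -2.67, SE 0.31, adjusted p = 0.00127), and stood at 10.9 CPM in somatic cells. The later pools of all 3 lay well below both PND2 pools. S100a6, a calcium-binding protein gene, fell by 2.77, Plac8 by 2.71, Kcnj15, a potassium channel gene, by 2.69, Rsph1, a radial spoke gene of cilia, by 2.55 and Dmrtc2, a transcription factor gene of meiotic cells, by 2.53. S100a6 stood at 181 CPM in somatic cells. All but Rhox5 were called without each pool in turn.

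**Figure D4:**
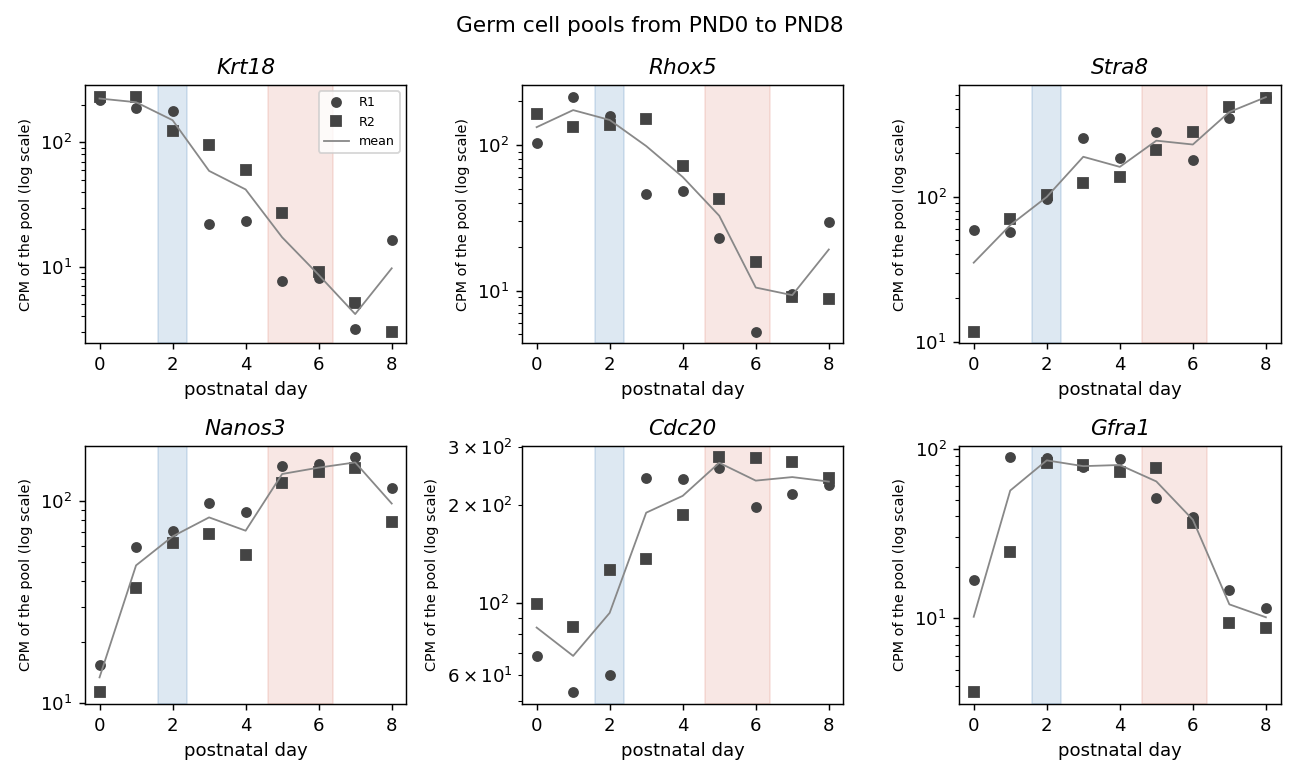
CPM on a log scale of 6 genes in the R1 (circles) and R2 (squares) pools from PND0 to PND8, with the mean of both as a line, PND2 shaded blue and PND5 to PND6 shaded red. Krt18 and Rhox5 fall and Stra8 rises over the days, Cdc20 climbs mainly between PND2 and PND5, and Gfra1 is low at PND0, high from PND2 to PND4 and low again at PND7.

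Other days gave pools that the comparison did not use. The mean of the 4 pools of PND3 and PND4 lay between those of PND2 and PND5-PND6 for 1714 of the 1976 higher genes (86.7%) and 2030 of the 2070 lower genes (98.1%). These genes were called for a gap between the outer means, which by itself favours a mean between them. The share over all genes was not counted, so these counts are a description. Krt18 was at 22.1 and 95.97 CPM at PND3 and 23.6 and 60.2 CPM at PND4, with R1 far below R2 on both days. PND7 was compared with PND0, which shares no pool with the main comparison. Of 22166 genes 4990 were called higher (22.5%) and 7319 lower (33%). Of the 1976 genes higher at PND5-PND6, 1655 were also higher at PND7 (83.8%) and 12 lower. Of the 2049 lower genes tested there, 1589 were also lower (77.6%) and 11 higher. Both comparisons span the same development, and the shared genes were 33.2% and 21.7% of the PND7 calls. Of the 52 G2/M genes 47 were higher, of 42 G1/S genes 37, of 25 differentiation genes 19, and of 20 prospermatogonia genes 14 were lower. Sertoli markers moved there too, with 9 of 15 higher, and their sum was 647 and 565 CPM at PND0 and 958 and 991 CPM at PND7. Of 40 genes of undifferentiated spermatogonia, 13 were higher and 8 lower at PND7, with a median log2 fold change of 0.69 against -0.35 over all genes. Zbtb16 and Nanos3 rose by 3.08 and 3.96 in log2. Gfra1, Id4 and Etv5 were low at both ends of this span. Gfra1 was at 16.8 and 3.66 CPM at PND0, 86.9 and 73.1 CPM at PND4 and 14.8 and 9.42 CPM at PND7, Id4 at 73.2 and 29.9, 191 and 195 and 33.5 and 25.3 CPM, and Etv5 at 47.4 and 9.35, 171 and 182 and 37.5 and 33.6 CPM on the same days. Kit was at 26.1 and 24.03 CPM at PND0 and 63.3 and 67.1 CPM at PND7, a rise of 1.81 (adjusted p = 0.000406) in log2.

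Between PND5 and PND6 no gene of 17624 was called by edgeR (0%), and 439 had an unadjusted p under 0.05 (2.49%). DESeq2 called 5 genes, 3 higher and 2 lower at PND6. With 2 pools on each day, this does not show that the days are alike. PND5 alone against PND2 gave 623 higher and 811 lower genes.

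A level in a pool can change because more cells express a gene or because each cell holds more of it, and thinned cells were therefore counted. Each cell was thinned to 50000 UMIs, which left out 32 of the 712 germ cells, none from PND2 R1. Stra8 was detected, with at least 1 UMI, in 61.5 and 72.4% of cells in the PND2 pools and in 94.01, 90.6, 78.2 and 93.5% in the later pools, against 31.5% of 162 somatic cells of these days. Its spread within a pool was wide. At PND2 R2 the median cell held 2 UMIs and the 90th percentile 14, and in PND5 R1 these were 5 and 34.4, and in PND6 R2 10 and 30. Kit was found in 42.3 and 48.8% of cells at PND2 and 41.9, 52.2, 30.9 and 54.8% later, which overlap (45.6% ± 4.61 against 44.96% ± 10.9, mean ± SD over 2 and 4 pools). Gfra1 was found in 76.9 and 88.8% at PND2 and 59.3, 86.2, 50.9 and 59.7% later, against 6.17% of somatic cells. Krt18 dropped from 96.2 and 92.4% of cells to 17.96, 37.7, 18.2 and 20.97%, below or near the 29.01% of somatic cells, and Tie1 from 57.7 and 45.3% to 1.82 to 5.80%, against 4.94% in somatic cells. Apart from PND5 R2, with 37.7% for Krt18 and 5.80% for Tie1, these later shares did not exceed the somatic background. Mki67 was found in 76.9 and 86.5% of cells at PND2 and in 85.5 to 97.8% later, and Cdc20 in 76.9 and 87.6% and then in 97.6 to 98.6%, against 54.9 and 58.02% of somatic cells. For 16 genes compared, the exact two-sided permutation test over 15 assignments of the 6 pools gave p = 0.0667 at the lowest, which is the smallest it can give, and 0.097 after adjustment over the 16. It was reached for Stra8, Krt18, Dnmt3l, Nanos3, Rarg, Sox3, Cdc20, Dkk3, Hmgn5, Rhox5 and Tie1, in which the pools of the groups did not overlap. It was not reached for Gfra1 (exact p = 0.267), Kit (0.933), Mki67 (0.2), Id4 (0.2) and Etv5 (0.333). The shares for Id4 did not overlap either, with 96.2 and 97.6% at PND2 and 80.8, 91.3, 69.1 and 80.6% later. The test compares differences of means, so a lack of overlap alone does not give the smallest p.

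**Figure D5:**
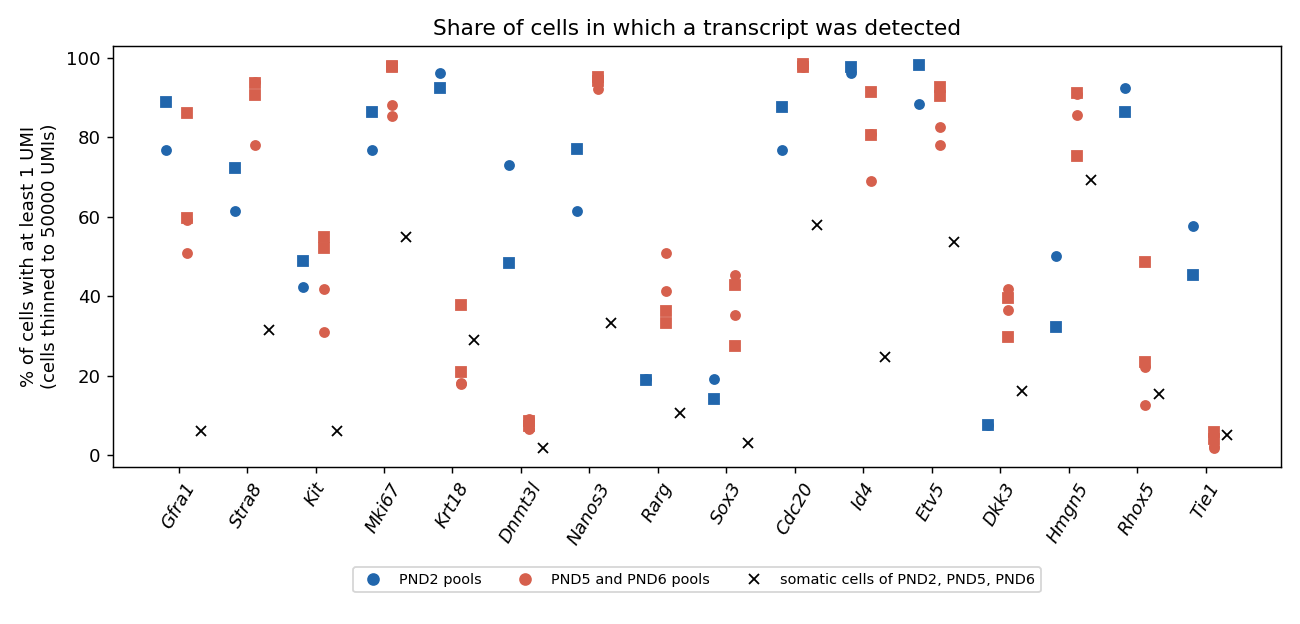
Share of cells with at least 1 UMI of each of 16 genes after thinning to 50000 UMIs, with blue for the PND2 pools, red for the PND5 and PND6 pools, circles for R1 and squares for R2, and a cross for somatic cells of the same days. Krt18 and Tie1 drop to near or below the cross. Dnmt3l and Rhox5 drop too, but Dnmt3l stays above the cross in all later pools and Rhox5 in all but PND6 R1. Stra8, Nanos3 and Cdc20 approach all cells, and the shares for Kit overlap.

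Germ cells of the later days also held fewer kinds of transcript. At 50000 UMIs the median cell held 8326 and 8016 genes in the PND2 pools and 7013, 7379, 7349 and 7326 genes in the later pools, a difference of 904 on average (exact permutation p = 0.0667, the smallest possible). Across the cells of a pool, Spearman's rho between Stra8 and Id4 was -0.35, -0.32, -0.23 and -0.31 over 55 to 167 cells at PND5-PND6, and 0.03 over 26 cells and -0.02 over 170 at PND2. Stra8 and Gfra1 had rho from -0.21 to 0.16 in the later pools, and 0.51 over 26 cells and 0.05 over 170 at PND2. These cells share library, depth and sparse counts, so the values are a description.

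By place in the genome, the calls included genes of the X chromosome in both directions. Of 732 tested genes on the X chromosome, 16.8% were called higher and 9.56% lower, and of 18480 autosomal genes 9.94% and 10.5%. Hmgn5, Lonrf3, Sox3, Tex11, Rps4x, Esx1 and the Rhox genes are X-linked, and they moved both ways.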

How the data were processed

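The authors read out cell barcodes and UMIs using UMI-tools, removed template-switch, poly(A) and low-quality sequence, aligned the reads to mm10 using STAR, and assigned them to genes using featureCounts (Subread). The submitters' notes also name CASAVA 1.8. The deposited table holds raw UMI counts of 31053 genes per cell, without normalization. Its column sums and numbers of genes equalled the deposited values in all 3328 cells read (PND0 to PND8), and 9704 columns of other cells were not used. The 12 libraries of PND2, PND5 and PND6 use the same 96 cell barcodes, and no cell shared library and barcode with another. Cells were picked singly, so no doublet caller was run. UMIs were summed per pool and tested with edgeR's quasi-likelihood test after TMM and filterByExpr, at a Benjamini-Hochberg adjusted p of 0.05 over all genes (edgeR 4.0.16, limma 3.58.1, R 4.3.3), and DESeq2 1.42.0 was an alternative. The fits were tested on simulated data. Pools of other days and thinned cells were computed from the same counts (Python 3.11.15, scipy 1.17.1). CPM are UMIs per 1000000 UMIs of the pool, and counts at the 3′ end need no scaling for length. Overlapping and duplicated genes can share reads.

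Named genes were the 10 largest rises and falls at a mean of at least 5 log2 CPM without overlap of pools (clone names left out), the gate and marker genes, genes that the study names, and up to 4 called members of each list, or the 2 most abundant where none was called. Further members were named after their values were seen. Some called members are not reported here by name. The members and lists were chosen with earlier results of these data known. Promoters are those of RefSeq on GRCm38.p6, coordinates those of GENCODE M21 on mm10. The alternatives were other normalization, filters, models, germ cell limits, thinning, single days and leaving out each pool.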

Additional observations from a re-analysis of the deposited data

Results flagged for a closer look

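Among the 4 pools of PND5-PND6, 1 pool stood far from the other three for 10 of 149 genes examined, by Dixon's test at the 95% level, and chance alone marks about 1 in 20 groups. PND5 R2 was the distant pool for 6 of them and lay above the other three each time. Among genes that fell from PND2 it held 26.9 CPM of Krt18, 12.2 CPM of Krt19, 32.9 CPM of Plac8, 59.3 CPM of Fcer1g and 15.02 CPM of Spocd1, each nearer to the PND2 pools than its neighbours were. For Nek2, which rose, it held 159.52 CPM. PND6 R1 stood apart with 15.4 CPM of Zxdc, above the others, and with 468 CPM of Mael and 2.87 CPM of Rhox9, below them. PND6 R2 held 178.54 CPM of Cdca2, while the other three held 166.81 to 167.45 CPM.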

How the results depend on the processing

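The count of genes called at PND5-PND6 against PND2 depended most on PND2 R1, the pool of 26 cells. Without 1 pool it ran from 1011 to 3886, with 632 to 2124 higher and 379 to 1933 lower, and it was 2245 without PND5 R1 and 2393 without PND6 R2. PND5 alone gave 1434 (623 higher, 811 lower) and PND6 alone 1571 (492 and 1079), each with fewer pools. By total UMIs without TMM, chosen after the data were seen, 872 were higher, by the mean of per-cell CPM 1005 higher and 4371 lower, and over PND0 to PND8 3180 lower. DESeq2, its size factors, no filter, 3 time-points in the model, either other germ cell limit and thinned cells kept all counts within 1.5 times. PND7 against PND0 ran from 9457 to 12076 without 1 pool and stayed within 1.5 times otherwise. PND6 against PND5, at 0, came to 5 with DESeq2 (3 higher, 2 lower), to 43 without the filter (23 and 20), and to 0 to 14 without 1 pool (0 to 13 and 0 to 1). The replicate numbers are in the cell names only. The differences between R1 and R2 correlated at -0.023, 0.046 and 0.148 between days. Each day gives a single difference, so these values do not settle whether replicates share an effect. With replicate as a block 4772 genes were called (2515 higher, 2257 lower), Tspan8, Id4, Upp1 and Mki67 passed and Emcn no longer did, among the genes named.

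Of 149 genes named, 75 kept their side of the threshold without PND2 R1 and 66 lost their call, and no called gene of these turned its direction under any setting. Genes that were not called did turn, here by their log2 fold changes. Nefm came to -0.0072 without the filter, -0.24 by total UMIs, -0.022 with 3 time-points, -0.045 over PND0 to PND8, -0.087 by per-cell CPM, -0.48 in PND6 alone, and -0.22 to 0.28 without 1 pool. Clu came to 0.076 in thinned cells, 0.23 in PND6 alone and -0.86 to 1.10 without 1 pool, and Cyp11a1 to 0.99 at the strict germ cell limit (at least 300 CPM of Ddx4, under 30 of Sox9 and Nr2f2) and -1.71 to 2.36 without 1 pool. Fdx1 came to 0.0014 at the strict limit, 0.067 in PND5 alone and -0.23 to 0.22 without 1 pool. Ctsl came to -0.069 by total UMIs and -0.087 by per-cell CPM, and mt-Co1 to -0.054 by total UMIs and -0.16 to 0.69 without 1 pool. Without 1 pool, Ptch1 ran from -0.25 to 0.16, Col1a1 from -0.057 to 1.61 and Piwil2 from -0.21 to 0.0065. Among shares of cells, the difference for Kit, -0.61 percentage points, came to 0.18 at 2 or more UMIs and to -3.90 to 4.08 without 1 pool. Gfra1, Stra8, Mki67 and Krt18 kept their direction at other thinnings and without each pool. The causes were not tested. With 2 pools at PND2, leaving 1 out assumes that the other varies like the later pools.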
